A study of Mus musculus with 4 samples.

Results

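The genes of polyamine synthesis and breakdown were compared between Ldha knockdown and control cells. The set held 10 genes: Arg2, Odc1, Srm and Sms of synthesis, Oaz1, Oaz2 and Azin1 of the antizyme system, and Sat1, Smox and Paox of breakdown. A gene was measured where a probe set of the array listed its symbol and no other, which gave 9 probe sets for 8 of the 10 genes, out of 22180 genes tested. The probe set that lists Sms also lists its pseudogene, and Paox was not analysed here, so neither has a value.

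All RNA came from 4T1 cells, a mouse mammary carcinoma line, grown in culture for 24 hours in complete RPMI 1640 medium. The cells carried either a scrambled short hairpin RNA (scramble, 2 arrays) or one against Ldha (shLDHA, 2 arrays), which encodes subunit A of lactate dehydrogenase. The knockdown cells were a pool selected with puromycin at 10 µg/ml. Selection of the scramble cells is not mentioned in the labels, so selection and knockdown cannot be told apart. Separate cultures are not named for the replicates either, so a p-value reflects the spread from array to array, which may be technical.

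Polyamines (putrescine, spermidine and spermine) are small positively charged molecules that bind RNA and DNA and are needed for growth and translation. Arginase makes ornithine from arginine, ornithine decarboxylase turns ornithine into putrescine, and the synthases add aminopropyl groups taken from S-adenosylmethionine. Antizymes bind ornithine decarboxylase and send it to the proteasome, while breakdown runs by oxidation of spermine or by acetylation followed by oxidation. Odc1 is a classical target of the transcription factor MYC, and tumour cells often hold raised polyamine pools.

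The values are on the log2 scale as deposited, after RMA (array normalization and summary per probe set), so a difference of 1 is a 2-fold difference. The 4 arrays had medians from 3.87 to 3.90, and across genes, which are not independent replicates, arrays correlated at r = 0.997 within a group and at r = 0.993 between groups. The hairpin's target was lower, with Ldha at 6.69 and 6.96 in scramble against 6.31 and 6.15 in shLDHA. Its log2 change was -0.59, or 1.51-fold lower, with 66.3% of the scramble signal left (limma adjusted p = 0.0390). That call was lost without scramble replicate 2 (adjusted p = 0.128), shLDHA replicate 1 (0.0965) or shLDHA replicate 2 (0.163). The 95th percentile of 1105 olfactory receptor genes, which are used mainly in the nose, was 4.19, and a gene under this level in both groups is called dim here. All 5 epithelial markers lay above it. Epcam and Krt8 rose in shLDHA by 0.53 and 0.47, while the changes of Krt18 (0.24), Cdh1 (0.04) and Krt19 (-0.33) missed the threshold. Dim were 4 of 5 fibroblast markers (all but Pdgfra), 4 of 4 tested leukocyte markers and 5 of 5 endothelial markers, and none of these markers of other cell types passed the test.

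Arg2, of an ornithine-making enzyme, Odc1, of an ornithine-using enzyme, and Smox, the spermine oxidase gene, were lower in the knockdown. Of the 8 genes, 3 fell (Arg2, Odc1 and Smox) and 0 rose at a limma adjusted p under 0.05. Over all 22180 genes, 2.99% were called lower, 3.37% higher and 6.36% in either direction. The share was 11.9% in either direction among the 10670 genes at or above the olfactory level, where all 8 polyamine genes lay. The median log2 change was -0.19 over the 8 genes and 0.01 over all genes tested. The groups did not overlap for 7 of the 8, as for 50.3% of all genes. Of these 7, 6 were lower in shLDHA and 1 higher, directions that held 24.0% and 26.2% of all genes. The 8 genes were chosen with earlier results of these data known, so setting them beside these shares is no test of the set. In bulk RNA, fewer cells that use a gene and less of its RNA per cell cannot be told apart.

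**Figure D1:**
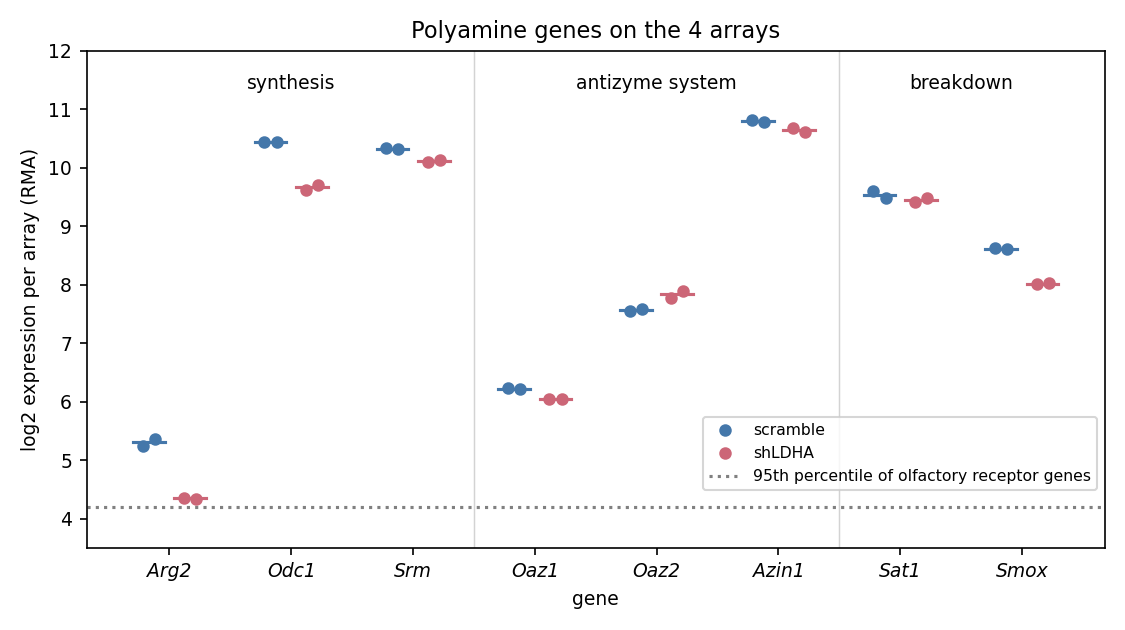
Log2 expression of the 8 measured polyamine genes (vertical axis) on each array. Points are arrays, short lines are group means, and the dotted line is the olfactory receptor level of 4.19. Heights can be compared within a gene but not between genes, whose probes differ. The shLDHA points lie clearly under the scramble points for Arg2, Odc1 and Smox, and overlap them for Sat1.

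Odc1, the gene of ornithine decarboxylase, the rate-limiting enzyme that makes putrescine, was measured by probe set 17274294 (Entrez gene 18263). The scramble arrays gave 10.43 and 10.44 and the shLDHA arrays 9.61 and 9.71. Both knockdown arrays lay below both control arrays by far more than the replicates of a group differed. Means fell from 10.44 ± 0.01 (SD, n = 2) to 9.66 ± 0.07 (SD, n = 2). The log2 change was -0.77 (SE 0.09, 95% interval -0.98 to -0.57), or 1.71-fold lower, with a limma adjusted p of 0.00572. It passed in all 13 alternative settings, with log2 changes from -0.82 to -0.72. These settings include the fits that left out an array, in which the lone array of a group is assumed to vary like the 2 arrays of the other group.

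Arg2, the mitochondrial arginase that splits arginine into ornithine and urea, had the largest difference of the 8. Its probe set 17276776 (Entrez gene 11847) gave 5.24 and 5.37 in scramble against 4.35 and 4.33 in shLDHA. The knockdown values came close to the olfactory level of 4.19, where array signals can be compressed, though this was not measured here. Group means of 5.30 ± 0.09 and 4.34 ± 0.01 (SD, n = 2 each) gave a log2 change of -0.96 (SE 0.09, 95% interval -1.17 to -0.75), or 1.94-fold lower (limma adjusted p = 0.00341). Arg2 also passed in all 13 alternative settings.

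Srm, the spermidine synthase gene, showed a smaller difference that missed the threshold. It read 10.34 and 10.32 in scramble against 10.10 and 10.13 in shLDHA (probe set 17421694). The groups did not overlap, but the log2 change of -0.21 (SE 0.08, 95% interval -0.41 to -0.02) had a limma adjusted p of 0.197. With an intensity trend in limma's variance prior, which lets the expected variance depend on a gene's level, the adjusted p was 0.0151.

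Smox, the gene of spermine oxidase, which turns spermine back into spermidine and releases hydrogen peroxide, fell as well. Its probe set 17376510 (Entrez gene 228608) gave 8.63 and 8.60 in scramble against 8.00 and 8.03 in shLDHA. The replicates of each group lay within a narrow band, with SDs of 0.02 in both groups, and the bands were well apart. The log2 change was -0.60 (SE 0.08, 95% interval -0.80 to -0.41), or 1.52-fold lower (limma adjusted p = 0.0117). The call rested on all but 1 of the arrays: the adjusted p was 0.0501 without scramble replicate 1, 0.0658 without shLDHA replicate 1 and 0.0635 without shLDHA replicate 2, with the change between -0.62 and -0.59 in the fits that left out an array.

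Sat1, the spermidine/spermine acetyltransferase gene that opens the other route of breakdown, did not pass. It read 9.60 and 9.48 in scramble against 9.42 and 9.48 in shLDHA (probe set 17545595), so the groups overlapped. The log2 change was -0.09 (SE 0.09, 95% interval -0.30 to 0.12, limma adjusted p = 0.649). The interval still allows a fall of up to 0.30 on the log2 scale, and the difference between the changes of Smox and Sat1 was not tested.

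**Figure D2:**
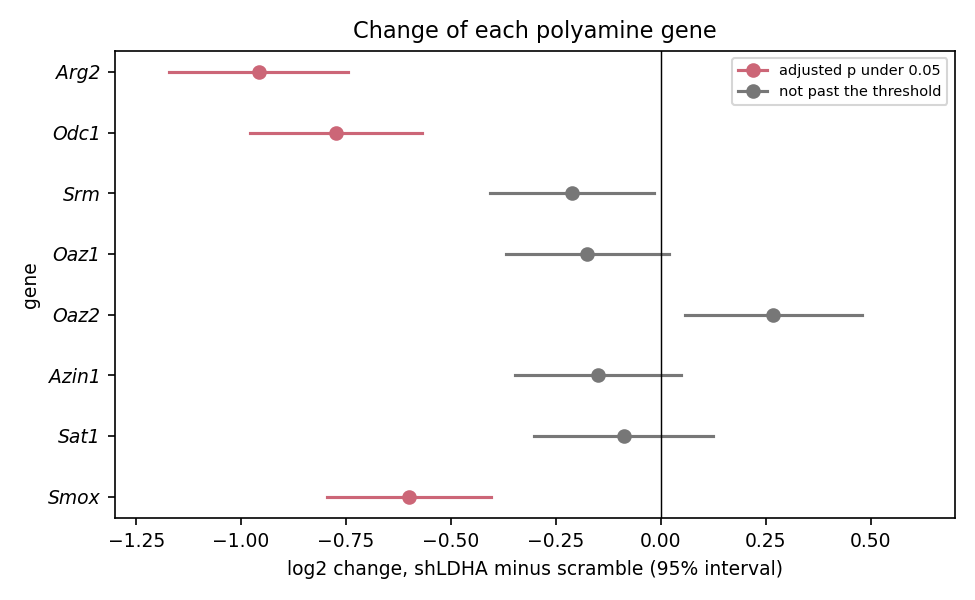
Log2 change of each polyamine gene (shLDHA minus scramble, horizontal axis) with its 95% interval from the limma fit, not adjusted for the number of genes. Arg2, Odc1 and Smox passed the adjusted threshold, and Oaz2 is the gene with a change above 0.

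The genes of the antizyme system, which sets how long ornithine decarboxylase protein lasts, did not pass in either direction. Oaz2, an antizyme gene, read 7.55 and 7.59 in scramble against 7.78 and 7.90 in shLDHA on its brighter probe set (17548287). The knockdown arrays were the higher pair, with a log2 change of 0.27 (SE 0.09, 95% interval 0.06 to 0.48) and a limma adjusted p of 0.142. Its second probe set (17518628) read 6.23 and 6.42 in scramble against 6.53 and 6.63 in shLDHA, a change of 0.26, so both pointed the same way. Oaz2 passed in 2 of the 13 alternative settings, at an adjusted p of 0.0459 with genes under the median level left out and 0.0398 with the intensity trend.

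Oaz1, the gene of the main antizyme, read 6.23 and 6.21 in scramble against 6.04 and 6.05 in shLDHA (probe set 17235462). Its log2 change of -0.17 (SE 0.08, 95% interval -0.37 to 0.02) had a limma adjusted p of 0.281. A second probe set that lists Oaz1 together with its pseudogene was not used. Azin1 encodes the antizyme inhibitor, a relative of ornithine decarboxylase that lacks its activity and frees the enzyme by binding antizyme. It read 10.81 and 10.79 in scramble against 10.68 and 10.62 in shLDHA (probe set 17316700), a log2 change of -0.15 (SE 0.08, 95% interval -0.35 to 0.05, limma adjusted p = 0.370). For Oaz1 and Azin1 the knockdown arrays were the lower pair, and for Oaz2 the higher pair.

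The DNA just upstream of Odc1 and Smox, which both fell, is shown. RefSeq promoter sequences (GRCm38.p6) were at hand for 7 of the 10 genes and for 2 of the 3 that fell, all but Arg2. Those of the genes that did not fall are not shown, and a link between sequence and change was not tested. Each sequence runs 5′ to 3′ on the plus strand and ends at the base before the outermost annotated start of the gene, at chr12:17544623-17544807 for Odc1 and chr2:131491612-131491857 for Smox. Capitals mark the GC box, GGGCGG or its reverse complement CCGCCC.
Odc1: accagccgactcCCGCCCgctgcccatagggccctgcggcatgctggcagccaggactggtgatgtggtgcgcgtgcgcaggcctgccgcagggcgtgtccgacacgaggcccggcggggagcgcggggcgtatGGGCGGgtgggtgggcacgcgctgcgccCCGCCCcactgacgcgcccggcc
Smox: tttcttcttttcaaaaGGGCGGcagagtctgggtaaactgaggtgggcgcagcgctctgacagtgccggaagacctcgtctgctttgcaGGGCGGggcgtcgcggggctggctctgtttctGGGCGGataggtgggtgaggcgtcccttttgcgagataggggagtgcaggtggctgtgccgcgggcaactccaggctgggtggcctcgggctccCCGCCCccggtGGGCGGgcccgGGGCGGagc
The Odc1 stretch of 185 bases held 3 GC boxes, 1 as GGGCGG and 2 on the other strand, and was 77.8% G or C, more than in 97.7% of RefSeq promoter windows of that length. The Smox stretch of 246 bases held 6, 5 of them as GGGCGG, and was 67.9% G or C, more than in 88.3% of windows. A GC box stood in 21.8% of all 32851 promoter windows of 185 bases and in 32.2% of those of 246 bases. These windows were the first 185 or 246 bases of every promoter sequence. Unlike the Odc1 and Smox stretches, they were not cut to end at a gene's outermost start. Searched on both strands, the E box CACGTG, which MYC can bind, had 0 matches in either stretch, against 3.88% and 5.89% of windows. The cyclic AMP response element TGACGTCA also had 0, against 0.648% and 1.51%. No matches of different motifs therefore overlapped. These are matches of letters in a short window and say nothing of binding there or elsewhere in the genes.

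Around these genes, few others of the pathway passed. Of 41 genes in 7 lists, 36 were tested, and 2 were lower and 1 higher in shLDHA (8.33%, against 6.36% of all genes). Their median log2 change was 0.02. Amd1 and Amd2, which supply the decarboxylated S-adenosylmethionine for both synthases, were not analysed here.

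Among 10 genes listed under arginine and ornithine supply, 1 fell. The list also held Azin2, the other antizyme inhibitor gene, which changed by -0.16 (limma adjusted p = 0.525). Nos2, the inducible nitric oxide synthase, which uses the same arginine as arginase, read 5.24 and 5.24 in scramble against 4.29 and 3.98 in shLDHA. Its log2 change was -1.11 (SE 0.12, 2.15-fold lower, limma adjusted p = 0.00516), and it passed in all 13 alternative settings. The knockdown mean of 4.14 lay below the olfactory level, where signals can be compressed, so this fold may understate the change. Compression was not measured here, and the fold is an estimate and not a minimum. The 95% interval of the log2 change ran from -1.39 to -0.82. In the fits that left out an array, the change lay between -1.26 and -0.95. Asl, the argininosuccinate lyase gene of arginine synthesis, had a log2 change of 0.36 (adjusted p = 0.0607). Oat, which links ornithine to proline and glutamate, changed by 0.22 (0.390), and Aldh18a1, of ornithine and proline synthesis, by 0.07 (0.697). Arg1, the cytosolic arginase, was dim, at a mean of 3.39 in scramble and 3.49 in shLDHA.

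Among 8 tested genes of the methionine cycle and salvage, 1 fell and 1 rose. The salvage route recovers methionine from methylthioadenosine, the by-product of spermidine and spermine synthesis. Mri1, an isomerase of that route, read 6.39 and 6.52 in scramble against 5.90 and 5.95 in shLDHA (log2 change -0.53, SE 0.09, limma adjusted p = 0.0225). Mat2b, the regulatory subunit of the enzyme that makes S-adenosylmethionine, read 6.21 and 6.10 in scramble against 6.60 and 6.64 in shLDHA (log2 change 0.46, SE 0.09, limma adjusted p = 0.0309). Both calls were fragile. Mat2b lost its call without each of the 4 arrays, with adjusted p of 0.0739 and 0.139 without scramble replicates 1 and 2 and 0.104 and 0.129 without shLDHA replicates 1 and 2. Mri1 kept its call without scramble replicate 1, and its adjusted p was 0.101 without scramble replicate 2, 0.101 without shLDHA replicate 1 and 0.0892 without shLDHA replicate 2. Mtap, the phosphorylase that opens the salvage route, changed by -0.14, Enoph1 of the same route by -0.15 and Ahcy, which clears S-adenosylhomocysteine, by 0.14, and none of these passed.

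No gene passed among 8 of polyamine and basic amino acid transport, by limma's adjusted p. Atp13a3, a P-type ATPase of polyamine uptake, came nearest. It read 10.03 and 10.04 in scramble against 9.67 and 9.38 in shLDHA (log2 change -0.51, SE 0.11, 95% interval -0.78 to -0.24, adjusted p = 0.0522). Slc7a1, a carrier of arginine and ornithine, changed by 0.16 (adjusted p = 0.382) and Slc3a2, the shared heavy chain of several amino acid carriers, by 0.01 (0.978). In the other direction from Atp13a3, Slc18b1 changed by 0.31 (95% interval 0.11 to 0.52, limma adjusted p = 0.0872) and Atp13a2 by 0.21 (0.463). The median log2 change of the 8 genes was 0.02.

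The hypusine pathway, which attaches a piece of spermidine to the translation factor eIF5A, held no call among 4 genes by limma's adjusted p. Dhps, which carries out the first step, read 7.43 and 7.47 in scramble against 7.18 and 7.16 in shLDHA (log2 change -0.28, adjusted p = 0.107). Eif5a2 changed by -0.36 (adjusted p = 0.0870) and the main factor gene Eif5a by -0.04 (0.833). The 3 further antizyme and acetyltransferase genes Oaz3, Sat2 and Satl1 were dim and changed by -0.03, -0.01 and -0.14.

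Myc read 11.27 and 11.26 in scramble against 10.98 and 11.07 in shLDHA. The knockdown arrays were lower, but the log2 change of -0.24 (SE 0.08, 95% interval -0.44 to -0.03) had a limma adjusted p of 0.172. Mycn and Mycl were dim, with changes of -0.11 and 0.32 that did not pass.

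**Figure D3:**
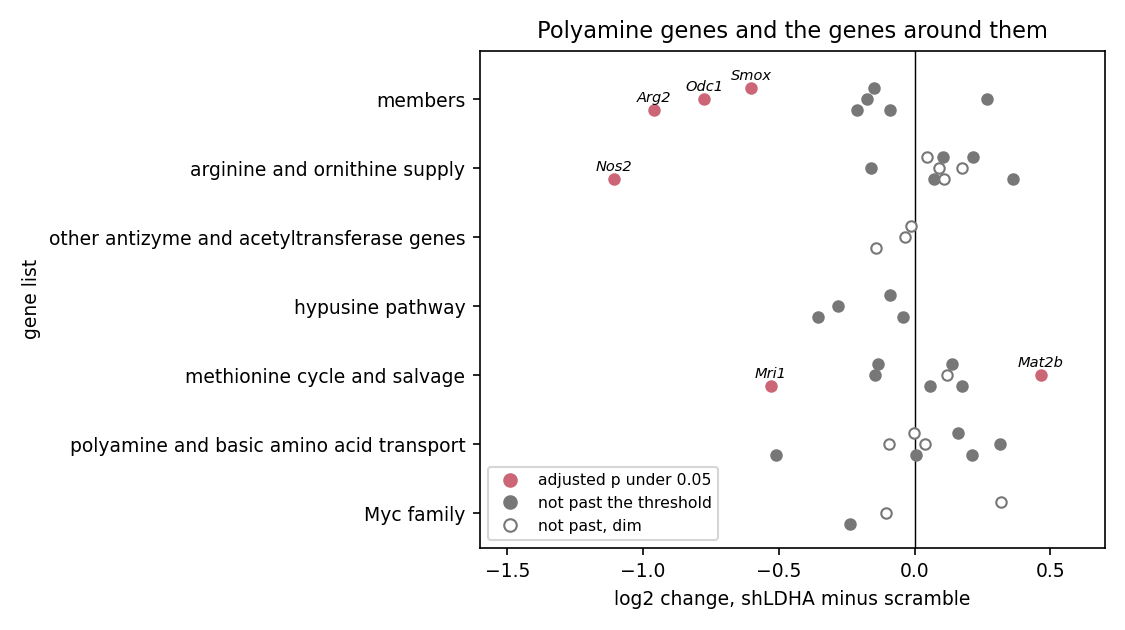
Log2 change (shLDHA minus scramble, horizontal axis) of the 8 polyamine genes, labelled members, and of 36 genes around them by list. Each point is a gene, coloured where the limma adjusted p was under 0.05 and open where the gene was dim. Besides Arg2, Odc1 and Smox, the coloured points are Nos2, Mri1 and Mat2b.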

How the data were processed

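Total RNA (400 ng per sample, per the labels' protocols) of 4 samples was labelled for whole-transcript Affymetrix arrays. The values deposited by the authors are log2 expression levels. RMA and R 3.4.0 are named in the submitters' processing notes, and the annotation version and build are not given in the sources used here. RMA as commonly run includes quantile normalization, which removes a shift shared by all genes. Of 41345 probe sets, the platform annotation paired 23521 with exactly 1 symbol, 1814 with several and 16010 with none. Those with 1 symbol were used, with the brightest probe set per gene, giving 22180 genes, with no filter on dim genes. Groups and replicate numbers came from the sample titles, because the cell type field reads LDHA for every sample. Columns of values left out numbered 0.

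The comparison used lmFit and eBayes of limma 3.58.1 (R 4.3.3; no covariate, two-sided), with Benjamini-Hochberg adjustment over all genes and a threshold of 0.05. The fit had 2 residual and 4.52 prior degrees of freedom. The number of arrays limits the precision. Alternatives were a replicate block, filters at the median level and above the 25th percentile, quantile normalization repeated, centring on array medians, the mean of a gene's probe sets, every probe set tested, an intensity trend or a robust prior in eBayes, each array left out in turn (13 settings), and a threshold of 0.1. Named were all measured members, Ldha, Myc, all called genes of the pathway lists and up to 3 more per list by level. Arg1, Azin2, Slc18b1, Atp13a2 and the cell markers were named besides. The members and lists were chosen with earlier results of these data known. The code was also run on simulated arrays of 22180 genes, where 200 were given a difference. It found 92.0% of those shifted by 1 on the log2 scale and 10.0% of those shifted by 0.5. Wrong calls made up 5.46% of all calls there. The real arrays gave 1410 calls, and the adjusted cut-off depends on how many genes differ. These shares are therefore no estimate of recovery in this experiment. Figures were drawn with matplotlib 3.10.9.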

Additional observations from a re-analysis of the deposited data

How the results depend on the processing

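Arg2, Odc1 and Smox kept their direction in all 13 alternative settings, and Arg2 and Odc1 their call as well. The number of polyamine genes called was 3 as reported and 2 to 3 when an array was left out. It was 4 with the filter at the median level, which added Oaz2, and 5 with the intensity trend, which added Srm and Oaz2. Among the other pathway genes 3 were called, against 8 with the filter at the median level, 5 with the filter above the 25th percentile, 9 with the trend, 7 at a threshold of 0.1 and 1 to 2 without an array. Over all genes 1410 were called, against 2783 with the filter at the median level, 2806 with the trend, 2391 at a threshold of 0.1 and 370 to 636 without an array. No direction changed among the 12 genes followed through the settings.

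Deviations of same-numbered arrays from their group means correlated at -0.03, so the numbers are not taken to pair the arrays. With the replicate block, 838 genes were called over all and 3 of the polyamine genes; Ldha (adjusted p = 0.0734) and Mat2b (0.0647) lost their calls and no other of the 12 changed. The fits without an array have 1 residual degree of freedom in place of 2, and take the spread from the group that kept both arrays and from limma's prior. Small changes are poorly resolved at 2 arrays a group. Signals near the olfactory level can be compressed, which was not measured here.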
